A study of Mus musculus with 5 samples.

Results

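The TRIM (tripartite motif) genes were examined in mouse embryonic cells cultured with interferon-alpha (IFNa) or with vehicle. Members were all rows of the deposited expression table whose single gene symbol was Trim followed by a number. This gave 55 genes of 17756, each with 1 row. A further row that paired Trim30b with a second symbol was not a member. No member passed the threshold for a difference between IFNa and vehicle, and differences of the interferon-inducible members ran from -0.72 to 0.88 on the log2 scale.

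TRIM proteins typically carry a RING domain, which gives them ubiquitin ligase activity, followed by B-box zinc fingers and a coiled coil, and they differ in their carboxy-terminal domain. Many take part in innate immunity, where they act on viral capsids or on the sensors and adaptors that lead to interferon production. A subset is itself induced by type I interferon, and promoters of interferon-induced genes often carry the interferon-stimulated response element (ISRE). Other branches act in chromatin, muscle, neurons or red cell formation.

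All 5 arrays came from C57Bl/6 embryos at E11.5. The aorta-gonad-mesonephros (AGM) region, where the first definitive hematopoietic stem cells arise, was dissociated, and its VE+CD45+ cells (VE for VE-cadherin, of endothelium, and CD45 of blood cells) were sorted and kept in medium with fetal bovine serum. Culture lasted 4 hours, with IFNa at 0.5 ng/ml in one group (n = 3, replicates 1, 2 and 3) and with vehicle in the other (n = 2, replicates 2 and 3). The series title asks whether IFNa signalling promotes the maturation of AGM stem cells. The labels call the replicates biological but do not say which embryos were pooled, so p-values measure the spread between these samples. The RNA is that of a sorted mixture cultured without its tissue, and fewer cells of a type and less RNA per cell cannot be told apart.

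Signals are log2 values from RMA, a method that corrects background, scales arrays to each other and gives 1 value to each set of probes. Array medians over all genes lay between 5.20 and 5.37, and Pearson's r between arrays, across genes, was 0.892 to 0.955. Of the sort markers, Ptprc (CD45) mRNA read 5.85, 7.03 and 5.35 with IFNa and 7.23 and 8.95 with vehicle. All IFNa arrays were lower, and the groups differed by -2.02 ± 0.75 (SE; adjusted p = 0.441, limma). Without vehicle replicate 3 it was -1.16. Cdh5 (VE-cadherin) read 8.55, 6.55 and 6.23 with IFNa and 9.20 and 6.93 with vehicle, with overlap. Their part in the TRIM values was not tested. The 10 macrophage markers of a fixed list had array means of 11.13 to 11.43 with IFNa and of 11.48 on both vehicle arrays. As a mark of dim signal, the 20th percentile of all gene values was 3.35. The number of arrays limits the precision.

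The ISRE was searched as GAAA, any 2 bases and GAAA again, on both strands in RefSeq promoter windows (build GRCm38.p6) that run from 250 bases before to 50 after each annotated start. Windows were found for 44 of the 55 members. The motif lay in the window of 7 of the 8 interferon-inducible members that had one, in 1 of the other 36 members and in 3.99% of all 27025 genes. The stretches below, 5′ to 3′ on the gene's strand with the matching bases in capitals, are shown because they belong to the 8 members with a match. The first 4 are the 80 bases before the start, the fifth runs from -192 to -113, and the last 3 are 30 bases at or after the start.
Trim5: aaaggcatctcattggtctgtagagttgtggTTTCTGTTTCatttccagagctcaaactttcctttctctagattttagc
Trim12c: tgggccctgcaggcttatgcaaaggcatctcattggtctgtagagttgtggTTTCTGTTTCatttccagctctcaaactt
Trim30a: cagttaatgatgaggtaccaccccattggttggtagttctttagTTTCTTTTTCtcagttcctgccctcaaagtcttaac
Trim30d: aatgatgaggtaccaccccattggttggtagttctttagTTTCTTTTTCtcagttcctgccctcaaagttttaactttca
Trim26: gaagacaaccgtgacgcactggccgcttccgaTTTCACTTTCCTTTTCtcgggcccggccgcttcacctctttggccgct
Trim21: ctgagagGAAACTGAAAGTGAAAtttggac
Trim34a: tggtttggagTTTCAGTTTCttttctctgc
Trim2: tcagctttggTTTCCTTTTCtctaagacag

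These stretches lie upstream of Trim5 at chr7:104288107-104288186 (minus strand), Trim12c at chr7:104353350-104353429 (minus strand), Trim30a at chr7:104465194-104465273 (minus strand), Trim30d at chr7:104507850-104507929 (minus strand) and Trim26 at chr17:36836954-36837033 (plus strand). Those of Trim21 at chr7:102565447-102565476 (minus strand), Trim34a at chr7:104244457-104244486 (plus strand) and Trim2 at chr3:84212791-84212820 (minus strand) lie at the start of the transcribed part. In Trim21 and Trim26 2 matches overlap. Trim30a has a further match, not shown, in the window of another annotated start. It lies at positions 3 to 12 from that start, at chr7:104446114-104446123 (minus strand). A match is a run of letters and not a measured binding site. Trim25 had a window with no match, and Trim14 had no window in the table. Trim6, Trim34a, Trim5, Trim12c, Trim30a and Trim30d are close neighbours on chromosome 7, in a run of 10 TRIM genes with at most 1 other protein-coding gene between neighbours. The near-identical stretches of Trim5 and Trim12c, and of Trim30a and Trim30d, go with genes that are close copies, so a probe set named for one of a pair may also read the other.

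Transcripts of the 9 measured interferon-inducible TRIM genes were not detectably changed after 4 hours of IFNa. None passed an adjusted p under 0.05 in limma, against 0.135% of all genes. Before adjustment, p lay under 0.05 for 0 of them, against 10.0% of all genes. Their median difference (IFNa minus vehicle) was -0.02, against -0.04 over all genes, and 5 of the 9 were below 0. All 9 read above 3.35 on every array. Their array means were 8.40 to 8.53 with IFNa and 8.37 to 8.46 with vehicle. The other 6 genes of this list, Trim12a, Trim30b, Trim30c, Trim30e-ps1, Trim34b and Trim56, did not have a row alone and were not analysed here.

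Trim5 and Trim12c belong to the mouse counterparts of the capsid-binding restriction factor TRIM5. Trim12c read 9.53, 9.63 and 9.90 on the IFNa arrays and 9.01 and 9.06 on the vehicle arrays. Every IFNa array was thus above both vehicle arrays, the only interferon-inducible member for which this held. The difference was 0.65 ± 0.42 (SE; adjusted p = 0.700, limma) and lay between 0.54 and 0.73 when each array was left out in turn. Its spread between replicates (pooled SD 0.16) was smaller than the moderated SE, which draws on all genes of a like level. Trim5 read 7.45, 8.78 and 8.47 with IFNa and 7.99 and 6.73 with vehicle. The groups overlapped, and the difference of 0.88 ± 0.66 (SE; adjusted p = 0.751, limma) shrank to 0.24 when vehicle replicate 3 was left out and grew to 1.51 when vehicle replicate 2 was.

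Trim30a, an interferon-induced member reported to restrain Toll-like receptor signalling, was the steadiest of the 55. It read 8.02, 7.94 and 8.07 with IFNa and 8.09 and 8.24 with vehicle. The IFNa arrays were all lower, by 0.03 between the nearest arrays, and the difference was -0.16 ± 0.46 (SE; adjusted p = 0.963, limma). Its neighbour Trim30d read 6.58, 7.45 and 7.30 with IFNa and 6.83 and 7.10 with vehicle, and the vehicle values lay within the IFNa range. The difference of Trim30d was 0.15 ± 0.51 (SE). For Trim34a, the arrays read 8.61, 9.14 and 7.75 with IFNa and 9.52 and 8.91 with vehicle. These overlapped, with a difference of -0.72 ± 0.58 (SE; adjusted p = 0.780, limma) that was -0.34 without IFNa replicate 3 and -0.41 without vehicle replicate 2.

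Trim21 is a cytosolic antibody receptor that sends antibody-coated virus to the proteasome. It read 8.48, 8.52 and 7.67 with IFNa and 8.11 and 8.39 with vehicle, so that IFNa replicate 3 was the lowest array. The difference was -0.02 ± 0.52 (SE), and it turned to 0.06 when arrays were centred on their medians. Trim25, the ligase that ubiquitinates the RNA sensor RIG-I, read 10.43, 10.78 and 10.08 with IFNa and 11.03 and 10.55 with vehicle. Its difference was -0.36 ± 0.39 (SE), and its 95% interval of -1.30 to 0.58 excluded a rise of 1. The difference of Trim25 was -0.13 without vehicle replicate 2 and -0.19 without IFNa replicate 3. Trim14, an adaptor at the mitochondrial protein MAVS, read 7.92, 8.22 and 8.33 with IFNa and 8.27 and 8.84 with vehicle, a difference of -0.40 ± 0.49 (SE) that shrank to -0.11 without vehicle replicate 3 and grew to -0.68 when vehicle replicate 2 was left out. Trim26, which lies in the major histocompatibility complex, read 8.55, 6.29 and 8.21 with IFNa and 7.32 and 7.53 with vehicle. Its IFNa arrays lay on both sides of the vehicle arrays, and the difference of 0.25 ± 0.76 (SE) was 0.95 without IFNa replicate 2 and -0.18 without IFNa replicate 1. Intervals excluded a rise of 1 for 4 of the 9 genes, and a rise of that size was not excluded for the other 5.

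**Figure D1:**
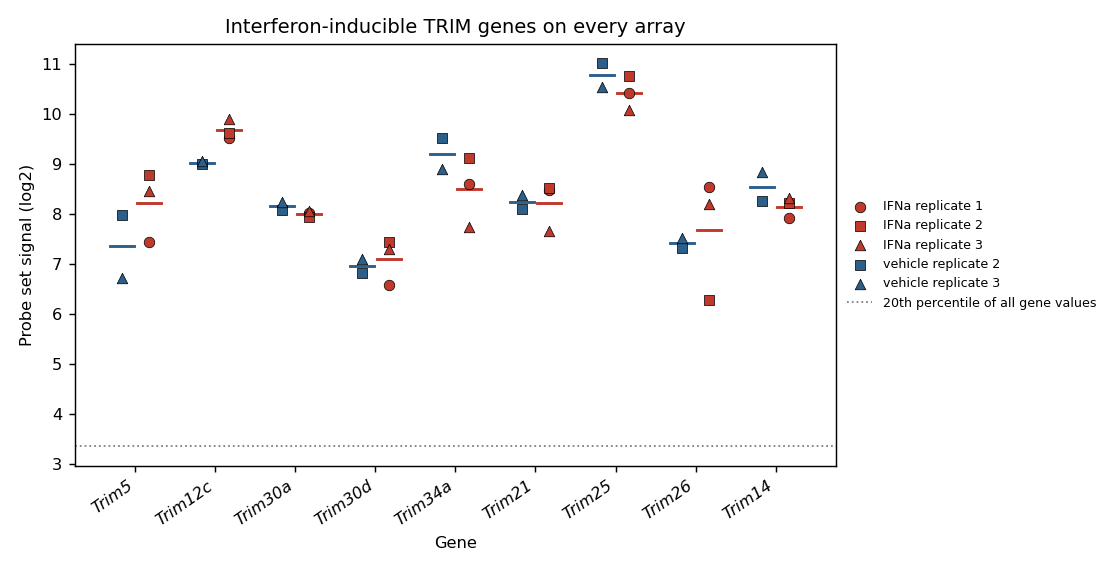
Probe set signal (log2) of the 9 measured interferon-inducible TRIM genes on each of the 5 arrays, with vehicle in blue and IFNa in red. Short lines are group means and the dotted line is the 20th percentile of all gene values (3.35). Only Trim12c has all IFNa arrays above both vehicle arrays, and the IFNa arrays of Trim26 spread from 6.29 to 8.55.

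Other genes of the interferon response showed the same lack of calls. In a list of 25 type I interferon response genes with 22 measured, 0 passed in limma. Even before adjustment none had a p under 0.05 (0 of 22), against 10.0% of all genes, and the list's median was 0.06. Differences of the 22 genes ran from -0.37 to 0.54. Intervals excluded a rise of 1 for 4 of the 22 genes, and a rise of that size was not excluded for the other 18. Of 4 TRIM proteins that carry other symbols, 0 passed. Pml, which builds the interferon-inducible PML nuclear bodies, read 7.78, 4.85 and 6.01 with IFNa and 5.05 and 6.51 with vehicle, a difference of 0.43 ± 0.91 (SE). Mefv, which encodes the inflammasome sensor pyrin, read 6.39, 6.41 and 4.19 with IFNa and 3.39 and 3.48 with vehicle. All its IFNa arrays were higher, with a difference of 2.23 ± 0.71 (SE; adjusted p = 0.372, limma).

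The family as a whole held no called gene, with 0 higher and 0 lower, against 0.0169% and 0.118% of all genes. At an adjusted p under 0.1 there were also 0 members, against 0.349% of all genes. At an unadjusted p under 0.05 there were 8 of 55 members (14.5%), against 10.0% of all genes. Of these, 2 were higher and 6 lower with IFNa, against 4.52% and 5.51% of all genes. The groups did not overlap for 15 members (27.3%), against 25.6% of all genes, a share near the background. IFNa was above in 4 of these and below in 11, against 2043 and 2500 of all 17756 genes. Differences over 1 in size were found in 9 members, against 18.7% of all genes, with 4 higher and 5 lower, against 9.64% and 9.06%. The median difference was -0.13, against -0.04 over all genes, and was -0.07 after quantile normalization and -0.05 after median centring. Differences above 0 were found in 20 members, against 46.0% of all genes, and in 26 and 24 members under these scalings.

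**Figure D2:**
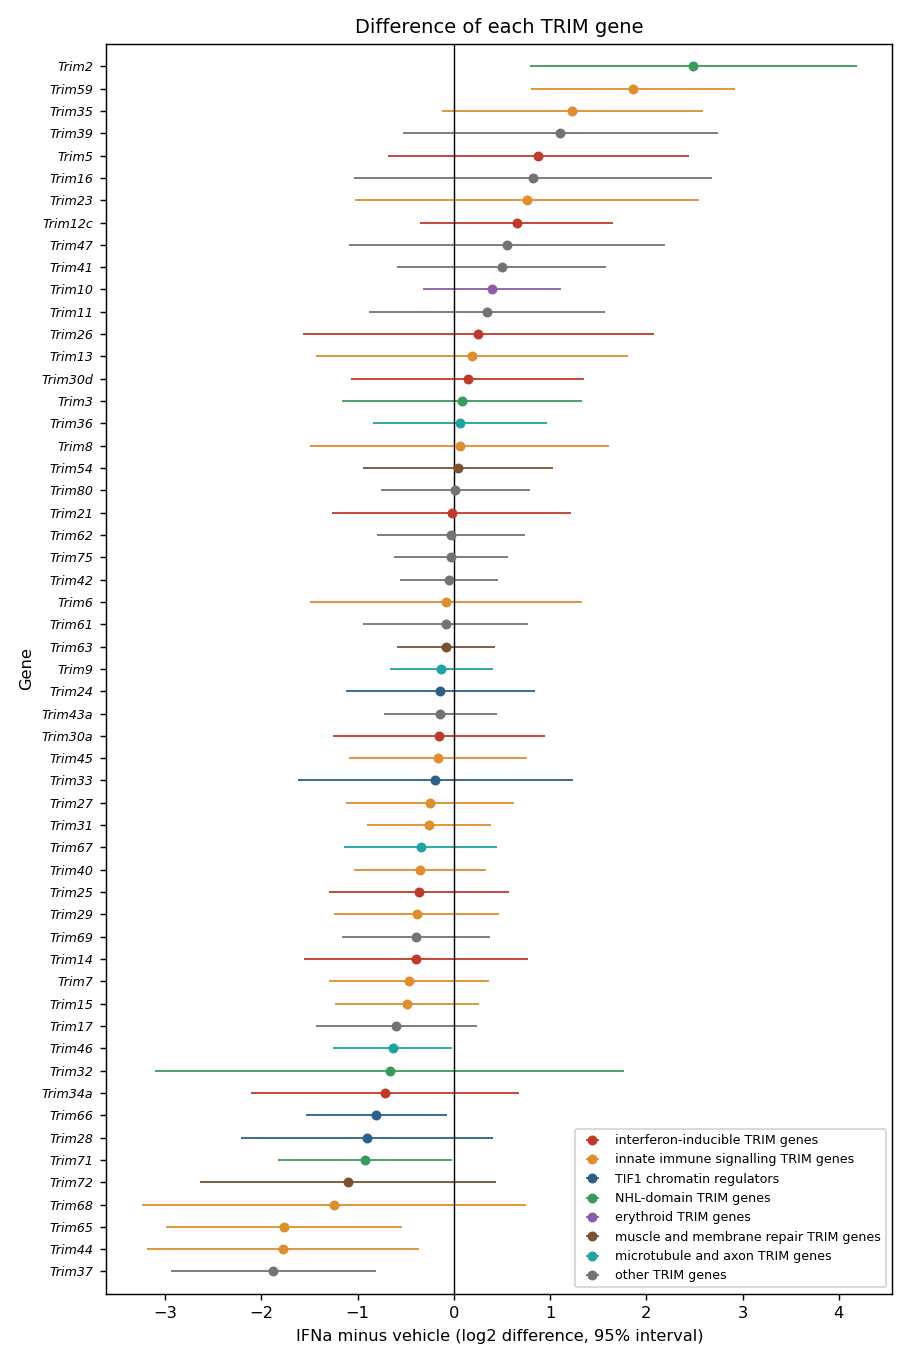
IFNa minus vehicle (log2 difference) of each of the 55 TRIM genes, in order of the difference. Points are fitted differences, bars are 95% intervals from limma and colours give the role list. Intervals of 8 genes exclude 0 before adjustment, with Trim2 (2.49) and Trim59 (1.86) above 0 and Trim37 (-1.88) the lowest.

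Among members that act on innate immune signalling, 16 of 17 listed genes were measured and 0 passed in limma. At an unadjusted p under 0.05 there were 1 higher and 2 lower, against 4.52% and 5.51% of all genes. The median difference was -0.26, against -0.04 over all genes. Trim59, a membrane-anchored member reported to dampen NF-kappaB and IRF signalling, read 11.68, 12.96 and 12.96 with IFNa and 10.55 and 10.79 with vehicle. All IFNa arrays were higher, by at least 0.89 on the log2 scale. The group means were 12.53 ± 0.74 (SD, n = 3) and 10.67 ± 0.17 (SD, n = 2), a 3.63-fold difference of 1.86 ± 0.44 (SE; adjusted p = 0.261, limma). Left-out arrays moved it between 1.65 and 2.29. Its probe set is of a kind that can match several transcripts, and so are those of Trim44 and Sting1. Trim35, a regulator of IRF7 and of the glycolytic enzyme PKM2, had the next smallest p of the higher members and was named after its values were seen. It read 8.25, 7.71 and 8.13 with IFNa and 7.41 and 6.19 with vehicle, a difference of 1.23 ± 0.57 (SE; adjusted p = 0.543, limma) that was 0.62 without vehicle replicate 3.

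Trim65 and Trim44 stood on the other side. Trim65, the ligase for the double-stranded RNA sensor MDA5, read 5.51, 5.99 and 6.55 with IFNa and 7.97 and 7.59 with vehicle. The groups were separated by 1.04 at their nearest arrays, and the difference was -1.76 ± 0.51 (SE; adjusted p = 0.349, limma). Trim44, an atypical member that lacks the RING domain and stabilises MAVS, read 6.99, 5.68 and 5.83 with IFNa and 7.61 and 8.28 with vehicle. Both vehicle arrays were higher, with a difference of -1.78 ± 0.59 (SE; adjusted p = 0.393, limma). When each array was left out in turn, Trim65 lay between -2.03 and -1.51 and Trim44 between -2.19 and -1.44.

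The adaptor that several of these proteins act on was lower too, without passing. Mavs read 4.94, 4.05 and 2.91 with IFNa and 6.50 and 8.09 with vehicle, a difference of -3.33 ± 0.73 (SE; adjusted p = 0.230, limma). Its groups did not overlap. IFNa replicate 3 lay below 3.35, and with values floored there the difference of Mavs was -3.18. In the list of 15 signalling partners of antiviral TRIM proteins, 12 were measured and 0 passed in limma. Only Mavs stood at a p under 0.05 before adjustment, and the median of the list was 0.06, with 6 of the 12 above 0. The DNA-sensing adaptor Sting1 differed by -1.47 ± 0.73 (SE), or -0.81 without IFNa replicate 3. For the kinase Map3k7 the difference was -1.02 ± 0.55 (SE), or -0.58 without that array. The remaining innate members ranged from -1.24 (Trim68) to 0.76 (Trim23). For both of these the vehicle arrays were over 2 apart, at 4.73 and 7.27 for Trim68 and at 5.46 and 3.40 for Trim23. Without vehicle replicate 3 the differences were 0.02 and -0.27.

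**Figure D3:**
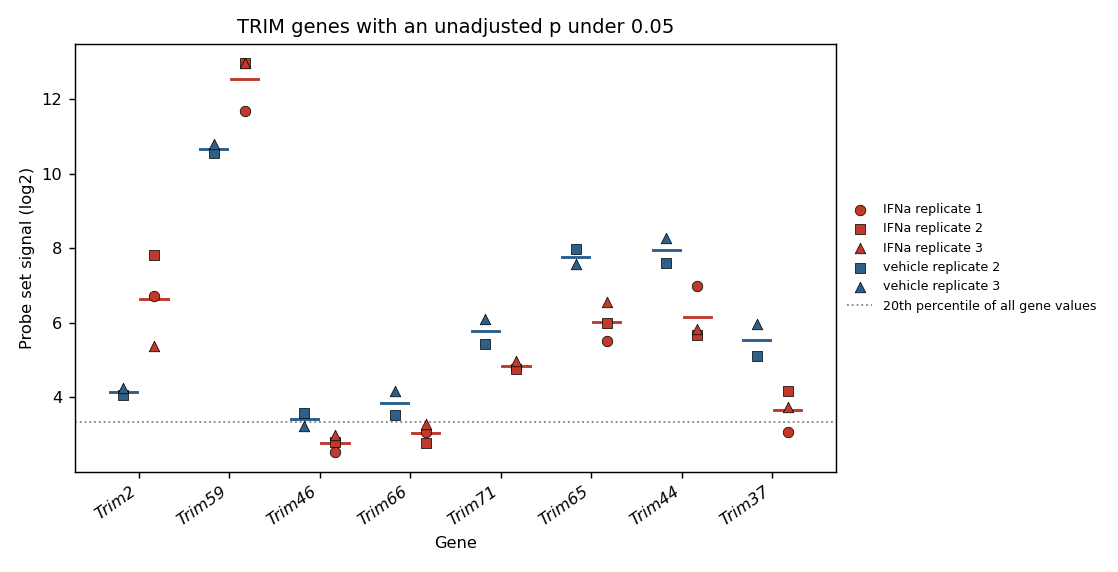
Probe set signal (log2) on each array for the 8 TRIM genes with an unadjusted p under 0.05, in order of the difference, with vehicle in blue and IFNa in red. Short lines are group means and the dotted line marks 3.35. The groups do not overlap for any of the 8, none passed after adjustment, and Trim46 and Trim66 lie near the dotted line.

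The TIF1 proteins Trim24, Trim28, Trim33 and Trim66 are chromatin regulators with a PHD finger and a bromodomain. All 4 were below 0, as were 9596 of the 17756 genes, and 0 passed in limma. The median difference was -0.50, against -0.04 over all genes. Trim28 (KAP1), the corepressor that KRAB zinc finger proteins recruit to silence retroelements, read 9.86, 8.45 and 8.98 with IFNa and 9.81 and 10.19 with vehicle. IFNa replicate 1 lay between the vehicle arrays, and the difference was -0.90 ± 0.55 (SE; adjusted p = 0.677, limma). Without that array it was -1.28, and without IFNa replicate 2 it was -0.58. Trim66 read 3.07, 2.79 and 3.27 with IFNa and 3.52 and 4.18 with vehicle. Its IFNa arrays all lay below 3.35, so the size of the difference, -0.81 ± 0.31 (SE; adjusted p = 0.448, limma), depends on how the low end of the scale was set. With values floored at 3.35 it was -0.50, and without vehicle replicate 3 it was -0.47.

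Trim24, a coactivator of nuclear receptors that also binds p53, read 4.79, 4.45 and 3.61 with IFNa and 4.31 and 4.53 with vehicle, a difference of -0.14 ± 0.41 (SE) that was 0.20 without IFNa replicate 3. Trim33, a regulator of TGF-beta signalling and of blood cell formation, differed by -0.19 ± 0.60 (SE) with overlapping groups, or by 0.38 without vehicle replicate 2. Of 14 listed partners of TIF1 proteins, 13 were measured and 0 passed in limma, with a median of -0.03. Before adjustment p lay under 0.05 for 2, which went opposite ways. The retinoic acid receptor Rara, which binds Trim24, differed by -2.03 ± 0.52 (SE; adjusted p = 0.298, limma), and the silencing factor Mphosph8 by 2.04 ± 0.74 (SE; adjusted p = 0.433, limma).

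Members with NHL repeats, a propeller-shaped domain that binds RNA or protein, included the largest difference of the family. Trim2, a ligase known from neurons, read 6.71, 7.83 and 5.39 with IFNa and 4.06 and 4.25 with vehicle. The lowest IFNa array was 1.14 above the higher vehicle array. Group means were 6.64 ± 1.22 (SD, n = 3) and 4.15 ± 0.13 (SD, n = 2), a difference of 2.49 ± 0.71 (SE; adjusted p = 0.340, limma). It lay between 1.90 and 3.12 when each array was left out. Outside the interferon-inducible list, 36 members had a promoter window, and Trim2 was the only 1 of them with the ISRE letters. The share over all genes was 3.99%, and a link between the letters and the values of Trim2 was not tested. The probe set of Trim2 is of a kind that can match similar sequences of other genes, and so are those of Trim28 and Mavs.

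Trim71, a let-7 target that keeps embryonic cells proliferating, read 4.78, 4.75 and 4.99 with IFNa and 5.43 and 6.11 with vehicle, with no overlap. The difference was -0.93 ± 0.38 (SE; adjusted p = 0.487, limma) and was -0.59 without vehicle replicate 3. Trim32, a ligase mutated in a limb-girdle muscular dystrophy, had the widest spread of all members. Its vehicle arrays read 9.56 and 6.29 and enclosed the IFNa arrays at 8.20, 6.82 and 6.76. The difference was -0.67 ± 1.02 (SE), which became 0.97 when the first of these vehicle arrays was left out and -2.30 when the second was. Trim3 differed by 0.08 ± 0.52 (SE). At an unadjusted p under 0.05 stood 2 of the 4 NHL members, Trim2 and Trim71, in opposite directions, against 10.0% of all genes.

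Trim10, which is needed for terminal red cell differentiation, was the only measured gene of 2 listed erythroid members. It read 4.28, 3.70 and 4.25 with IFNa and 3.73 and 3.63 with vehicle, a difference of 0.39 ± 0.30 (SE; adjusted p = 0.756, limma). Among 8 measured erythroid markers 0 passed in limma, and their median was -0.46. The transferrin receptor gene Tfrc came closest, at 2.89 ± 0.38 (SE; adjusted p = 0.0741, limma), and was called without vehicle replicate 2.

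None of the 3 measured muscle members (4 listed) passed in limma, and their median difference was -0.09. Trim54 (MuRF3) and Trim63 (MuRF1) are sarcomere-associated ligases, and Trim72 (MG53) repairs muscle membranes. Trim54 was among the steadiest members, at 6.07, 6.33 and 6.36 with IFNa and 6.16 and 6.26 with vehicle, a difference of 0.04 ± 0.41 (SE). Trim63 read 2.19 to 2.50 with IFNa and 2.32 and 2.51 with vehicle, below 3.35 on every array, so its row can show little. For Trim72, IFNa arrays read 3.75, 3.85 and 4.25 and vehicle arrays 3.92 and 6.18. Its difference of -1.10 ± 0.64 (SE) rested on vehicle replicate 3, being 0.03 without that array and -2.23 when it was the lone vehicle array (adjusted p = 0.102, limma). Of 13 muscle markers, 3 passed in limma, all lower with IFNa, against 0.118% of all genes called lower. At an unadjusted p under 0.05 stood 5 of the 13, against 10.0% of all genes. The 3 that passed were the embryonic myosin gene Myh3, the cardiac actin gene Actc1 and the atrial light chain gene Myl7. Their differences were -5.20 ± 0.33, -4.81 ± 0.35 and -3.36 ± 0.35 (SE), in that order. All IFNa arrays of these 3 lay below 3.35, so these sizes depend on the low end of the scale, and with values floored at 3.35 they were -4.17, -1.78 and -1.59. The array means of these 13 markers were 3.08 to 3.29 with IFNa and 4.57 to 5.22 with vehicle, and their part in the values of Trim72 was not tested. None of the 3 calls held without IFNa replicate 1, without IFNa replicate 3 or with the floor. A fixed replicate block, which gives the same differences as leaving out IFNa replicate 1, also called none of the 3. Myl7 also lost its call without IFNa replicate 2, and Actc1 and Myl7 lost theirs without a variance trend. With each array left out the differences stayed between -5.38 and -5.04 for Myh3, between -5.29 and -4.33 for Actc1 and between -3.72 and -2.99 for Myl7.

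Of the 4 members tied to microtubules and axons, 0 passed in limma and the median difference was -0.24. Trim46, which organises microtubules at the start of the axon, read 2.53, 2.80 and 2.99 with IFNa and 3.59 and 3.23 with vehicle. The groups did not overlap, but all arrays except vehicle replicate 2 were below 3.35. The difference of -0.64 ± 0.26 (SE; adjusted p = 0.482, limma) shrank to -0.12 with values floored there. Trim9, a neuronal ligase, read 1.89, 1.96 and 2.32 with IFNa and 2.28 and 2.10 with vehicle, below 3.35 throughout. Its relative Trim67 differed by -0.34 ± 0.33 (SE), or -0.12 without vehicle replicate 3, and Trim36 by 0.07 ± 0.38 (SE). Among 9 measured neural markers 0 passed in limma and the median difference was -0.08.

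The 14 members outside these roles had 0 calls and a median difference of -0.03. Trim37, a ligase of peroxisomes and centrosomes whose loss causes mulibrey nanism, had the smallest p of the family. It read 3.07, 4.17 and 3.75 with IFNa and 5.12 and 5.97 with vehicle, so that the highest IFNa array lay 0.95 below the lower vehicle array. The means were 3.66 ± 0.55 (SD, n = 3) and 5.54 ± 0.60 (SD, n = 2), a difference of -1.88 ± 0.45 (SE; adjusted p = 0.260, limma). It lay between -2.30 and -1.45 when each array was left out, and was -1.78 with values floored at 3.35.

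Trim39, which acts in apoptosis and the cell cycle, read 6.47, 7.64 and 5.38 with IFNa and 5.41 and 5.37 with vehicle. Its vehicle arrays were close together while the IFNa arrays spread over 2.25, and the difference of 1.11 ± 0.69 (SE; adjusted p = 0.683, limma) was 0.54 without IFNa replicate 2. Trim17, a ligase of neuronal cell death, read 3.51, 3.57 and 3.48 with IFNa and 3.62 and 4.62 with vehicle, and its difference of -0.60 ± 0.35 (SE) was -0.10 without vehicle replicate 3. The row of Trim42 was dim and steady at 2.28 to 2.55 over all arrays, below 3.35 throughout, with a difference of -0.05 ± 0.21 (SE). The other members of this group ranged from -0.39 (Trim69) to 0.82 (Trim16, 0.10 without IFNa replicate 3).

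Signals of 5 members, Trim9, Trim42, Trim43a, Trim63 and Trim75, stayed below 3.35 on every array, and those of 5 more did so on some arrays. Vehicle arrays differed by over 1 for 9 members (16.4%, against 23.3% of all genes) and IFNa arrays ranged over more than 1 for 20 (36.4%, against 34.8%). The median pooled SD was 0.41 for members and 0.43 for all genes. The 5 members with the smallest spread were Trim30a, Trim54, Trim42, Trim63 and Trim12c, of which Trim12c alone differed by more than 0.2. The 95% interval excluded a change of 1 in both directions for 10 of the 55, and a rise of 1 for 33. On chromosome 17, Trim26, Trim15, Trim10, Trim40 and Trim31 follow each other with at most 1 other protein-coding gene between neighbours, and their differences ran from -0.49 (Trim15) to 0.39 (Trim10).

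**Figure D4:**
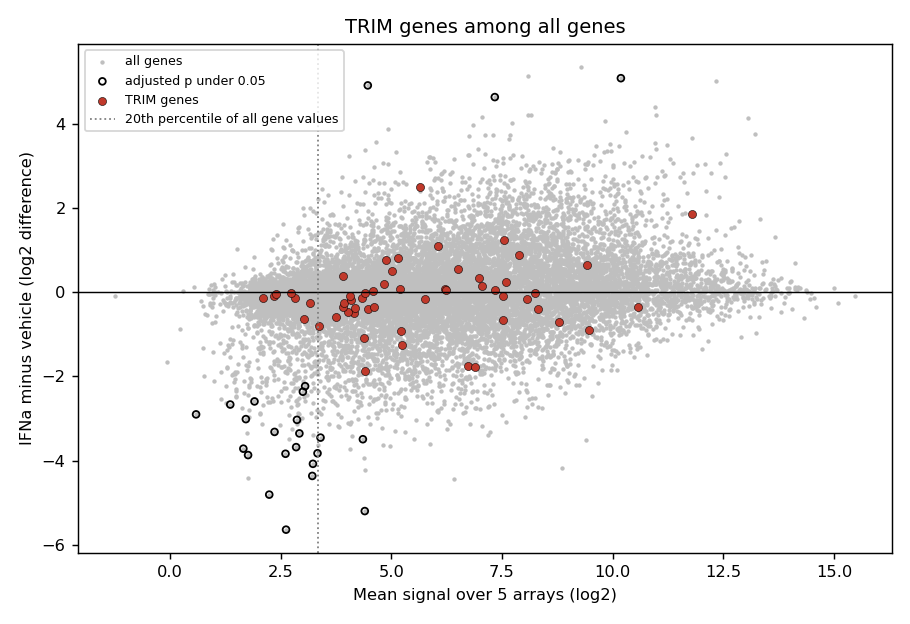
IFNa minus vehicle (log2 difference) against the mean signal over 5 arrays (log2) for all 17756 genes in grey and the 55 TRIM genes in red, with the 24 genes that passed an adjusted p under 0.05 ringed. The dotted line marks 3.35. TRIM differences run from -1.88 to 2.49 inside the cloud of other genes, and no ringed gene is a TRIM gene.

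Further marker lists of blood and neighbouring cells had no called gene in limma. A VE+CD45+ gate is meant to leave out mesenchymal cells and endothelium without CD45, but the purity of the sort was not tested. The mesenchymal markers had array means of 4.49 to 5.98 with IFNa and 5.11 to 5.78 with vehicle. The median difference was -0.06 for 10 macrophage markers, -0.44 for 10 endothelial markers, -0.11 for 9 mesenchymal markers and -0.23 for 15 hematopoietic stem and progenitor genes. At an unadjusted p under 0.05, against 10.0% of all genes, stood the macrophage marker Timd4 (-2.54), the endothelial marker Tek (2.15), the mesenchymal markers Tagln (-1.73) and Acta2 (-2.04), and Cd34 (-2.61) and Ptprc (-2.02) of the stem and progenitor list.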

How the data were processed

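The authors deposited log2 signals of Affymetrix probe sets, and RMA is named in the submitters' processing notes. The software behind it was not given in the sources used here. No detection calls were used. Because some values lie below 0 and array medians differ, how low signals were treated is unknown. The platform annotation gave 1 symbol to 17838 of 20881 rows, several to 244 and none here to 2799. For a symbol with several rows, the row with the highest mean was used, which left 17756 genes. All 55 members were also in the RefSeq gene table (GRCm38.p6).

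IFNa (n = 3) was compared with vehicle (n = 2), grouped by sample titles, with limma 3.58.1 in R 4.3.3 (lmFit, eBayes with a mean-variance trend, two-sided). Benjamini-Hochberg adjustment ran over all genes, and an adjusted p under 0.05 was called. Errors of differences are moderated standard errors. The fit was tested on simulated data. A vehicle replicate 1 was not analysed here. Members, lists and rules were chosen with earlier results of these data known. The rule for naming took all interferon-inducible members, the 8 others with the smallest p, up to 3 per role list and the 5 with the smallest spread. Other genes were named with their values in view. The alternatives are those of the closing section.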

Additional observations from a re-analysis of the deposited data

How the results depend on the processing

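No TRIM gene was called under any of 15 alternative settings in limma, nor at an adjusted p under 0.1, and the lowest adjusted p was 0.102 (Trim72 without vehicle replicate 2). The count of members at an unadjusted p under 0.05, 8 with all arrays, was 4 among genes above the median level, where 24 members were tested, 5 with values floored at the 20th percentile (50 tested), and 5 to 9 with each array left out. All 8 kept their sign in every setting in which they were tested. Their groups did not overlap, so neither a left-out array nor a floor could reverse a sign. Settings that alter only the variance leave all differences as they are. Each member has 1 row, so settings that combine or separate rows leave members' differences as they are too. Of 29 named members, the sign changes outside left-out arrays were as follows. After quantile normalization they were Trim42 (0.13), Trim63 (0.078) and Trim9 (0.042). After median centring they were Trim21 (0.059) and Trim42 (0.031). With a fixed replicate block Trim26 (-0.18) changed sign. That block gives the same differences as leaving out IFNa replicate 1, because no vehicle array has that number, so it is not a separate check. With each array left out, ranges crossed 0 for Trim21 (-0.17 to 0.25), Trim24 (-0.39 to 0.20), Trim26 (-0.18 to 0.95), Trim30d (-0.024 to 0.41), Trim32 (-2.30 to 0.97), Trim42 (-0.19 to 0.081), Trim54 (-0.012 to 0.13), Trim63 (-0.18 to 0.0083) and Trim72 (-2.23 to 0.033), and over all 55 members 26 changed sign at least once. Over all genes, 3 were higher and 21 lower with all arrays. The counts were 1 and 0 above the median level, 0 and 0 with the floor, 1 and 2 without a variance trend, and 0 to 37 and 0 to 144 with each array left out, where the spread of a single vehicle array was taken from the IFNa arrays. The cause was not tested. Both groups have replicates numbered 2 and 3. Correlations of the deviations of equally numbered arrays from their group means were 0.0024 and 0.043. With 2 vehicle arrays, the deviations of one mirror those of the other, so these values cannot decide whether arrays were paired. The consensus correlation of a random replicate block was 0.118, and pairing remains unknown. A fixed replicate block (1 residual degree of freedom) gave 5 members at an unadjusted p under 0.05 and called 0 and 0 genes (1441 at an unadjusted p under 0.05), and a random replicate block gave 8 members and 9 and 27 genes. Dim rows and 5 arrays limit what could be seen.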

Other observations

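The row shared by Trim30b and the predicted gene Gm38525, which belonged to no member, read 5.14, 6.30 and 6.17 with IFNa and 5.72 and 6.00 with vehicle. Its difference in a fit over all rows was 0.0092 ± 0.50 (SE; adjusted p = 0.998, limma).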
